A study of Mus musculus with 2 samples.

Results

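The BCL2 family genes were examined in splenic T cells of the mouse, in CD4+ helper cells against CD8+ cytotoxic cells. The set held 10 genes, taken as every non-control probe whose transcript accession mapped to Bcl2, Bcl2l1, Mcl1, Bax, Bak1, Bcl2l11, Bad, Bid, Bbc3 or Pmaip1. All 10 genes were found, with 16 probes in 43 spots, among 17176 genes named on the array. The rule names the genes and uses no measured value, but they were chosen with earlier results of these data known. Both groups were wild-type splenocytes of strain C57B6 isolated by cell sorting, 1 group sorted as CD4+ helper T cells and the other as CD8+ cytotoxic T cells, with no treatment named beyond the sort. The sources used here do not state age, sex, the number of mice or the markers of the sort. Each cell type had 1 one-colour Agilent array, so the cell types could not be compared by a test, and every error below is technical.

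The family decides whether a cell keeps its mitochondria intact. Bax and Bak1 encode the effectors that open the outer mitochondrial membrane and release cytochrome c, the antiapoptotic proteins of Bcl2, Bcl2l1 (BCL-XL) and Mcl1 hold them back, and the BH3-only proteins, such as BIM, BID, PUMA and NOXA, relieve that hold or activate the effectors. In T cells, survival signals from cytokine receptors maintain BCL2 and MCL1, and BIM is a main executor of the death of T cells deprived of cytokine or contracting after a response.

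Upstream windows of 3 members are shown, because Bid had the largest difference of the family and Bcl2l11 and Bbc3, encoding BIM and PUMA, were the members whose windows held the core motif of the FOXO transcription factors. The sequences are from RefSeq, build GRCm38.p6, and give the 250 bases before an annotated transcript start, read 5′ to 3′ in the direction of the gene. Capitals mark matches, on either strand, to GTAAACA (FOXO core), GGGCGG (GC box), CCGGAAG (ETS core), CACGTG (E-box), TGACGT (core of the cAMP response element) or TGTGGT (Runx core), and neighbouring GC boxes may overlap. The window of Bid is at chr6:120916825-120917074, minus strand. The Bcl2l11 window shown is at chr2:128125788-128126037, plus strand, and the Bbc3 window shown at chr7:16310011-16310260, plus strand.
Bid: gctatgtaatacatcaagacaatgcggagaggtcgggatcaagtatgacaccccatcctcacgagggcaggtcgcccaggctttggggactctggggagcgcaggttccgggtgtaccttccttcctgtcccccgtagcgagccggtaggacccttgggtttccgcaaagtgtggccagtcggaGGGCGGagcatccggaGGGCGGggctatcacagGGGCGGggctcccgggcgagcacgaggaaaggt
Bcl2l11: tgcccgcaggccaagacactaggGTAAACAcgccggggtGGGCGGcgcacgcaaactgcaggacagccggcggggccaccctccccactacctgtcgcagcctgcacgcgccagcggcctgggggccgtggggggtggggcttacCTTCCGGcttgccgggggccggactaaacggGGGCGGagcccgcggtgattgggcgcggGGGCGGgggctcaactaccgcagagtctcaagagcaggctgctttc
Bbc3: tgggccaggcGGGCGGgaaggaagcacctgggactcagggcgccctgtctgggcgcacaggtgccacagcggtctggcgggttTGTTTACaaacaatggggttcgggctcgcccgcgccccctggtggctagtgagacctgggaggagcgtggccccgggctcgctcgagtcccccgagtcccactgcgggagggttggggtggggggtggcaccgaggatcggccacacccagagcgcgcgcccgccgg
The table held 15 such windows for 9 of the 10 members, Bad, Bak1, Bax, Bbc3, Bcl2, Bcl2l1, Bcl2l11, Bid and Mcl1. The FOXO core was in 2 of the 15 windows, those shown for Bcl2l11 and Bbc3, against 3.17% of 32851 windows of the same length. The other windows of Bcl2l11 and Bbc3 did not hold it. Some members have several windows, and some windows of Bbc3 overlap, so the 15 windows are not independent. The GC box was in 10 of 15 member windows, 3 times in that of Bid, against 32.7% of all windows. The Bid window held none of the other 5 motifs. Runx3, a transcription factor of the cytotoxic lineage, binds the Runx core, which among the members was in the Bak1 window alone (14.0% of all windows). The cAMP response core was in the window of Bcl2 alone (6.47% of all windows), the ETS core in windows of Bcl2l11 and Mcl1 (6.91%) and the E-box in windows of Bax and Bbc3 (6.02%). These matches describe letters and were not tested as binding sites.

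The labels were checked first. Cd8a was 105.6-fold higher on the CD8+ array and Cd4 4.12-fold higher on the CD4+ array, and all 7 measured T cell markers were clearly above background on both. Of 43379 non-control spots, 63.1% (CD4+ array) and 58.6% (CD8+ array) passed the scanner software's test of being well above background, called detected from here on. Signals were divided by each array's 75th percentile, 508.4 on the CD4+ and 449.9 on the CD8+ array, so equal raw signals correspond to a log2 difference of 0.18 in favour of the CD8+ array. Over 11957 genes detected on both arrays the median log2 difference, CD8+ minus CD4+, was 0.02, with an interquartile range from -0.18 to 0.20. Different probes of a gene differed by an SD of 0.23 on that scale (3972 genes). Levels of different probes are not set against each other, since probes hybridise with unequal strength.

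Bid was 1.77-fold higher on the CD8+ array, and the other members lay closer to equal between the arrays. Of the 10 members, 9 were detected on both arrays and Bad on the CD8+ array alone, and no member reached a 2-fold difference. Among all 13058 genes detected on at least 1 array, 6.87% had a difference or bound of at least 2-fold, 2.21% in favour of the CD8+ and 4.66% in favour of the CD4+ array, and 1.59% one of at least 4-fold. Read against these shares, 0 of 10 members does not set the family apart. The median difference of the members was 0.13, beside 0.00474 over all 13058 genes. Over genes detected on both arrays alone, the medians were closer, 0.08 for 9 members and 0.02 for all genes. The members ran from -0.26 for Mcl1 to 0.83 for Bid, and 5 of 10 lay inside the interquartile range of all genes, which by definition holds the same share of them. Positive values were found for 7 members and negative ones for Mcl1, Bcl2l1 and Pmaip1, the last of which turned positive (0.03) when arrays were scaled to their medians. That scaling moved the median of all genes by 0.14.

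**Figure D1:**
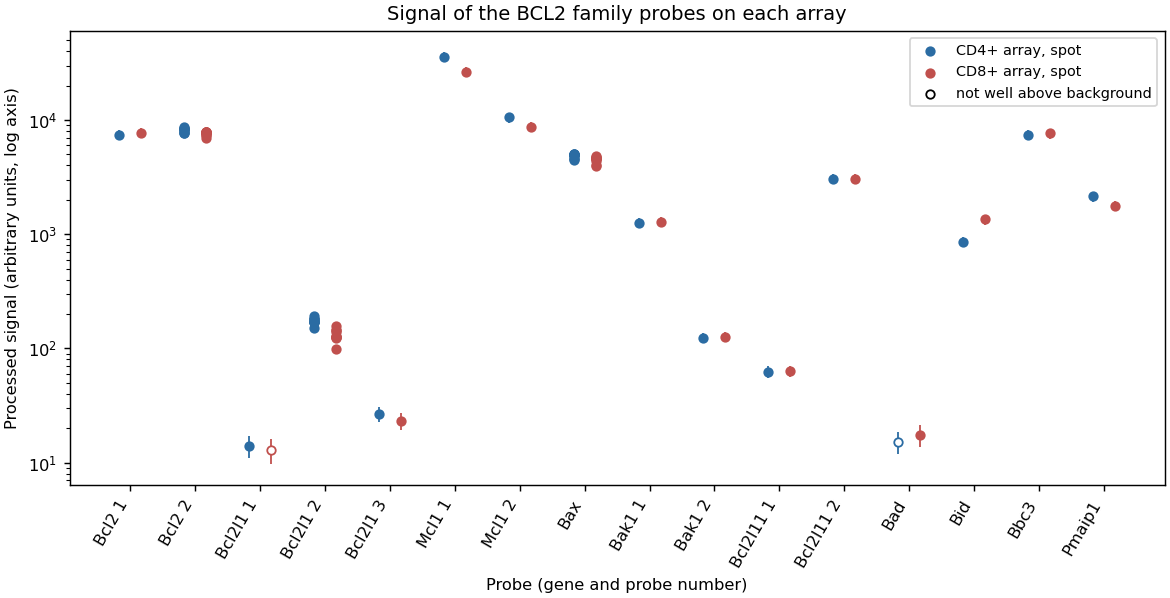
Processed signal of each member probe (log axis, arbitrary units) on the CD4+ (blue) and CD8+ (red) arrays. Points are spots, outlier spots left out, bars on single-spot probes are the scanner software's error, and open points were not well above background. The paired points of a probe lie close together, with Bid the most separated, at 861 and 1351.

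Among the antiapoptotic genes, Bcl2, the founding survival factor of the family, had 2 probes. The one for transcript NM_009741 gave a processed signal of 8160 ± 342 (SD, 9 spots) on the CD4+ and 7637 ± 297 (10 spots) on the CD8+ array. After scaling this was a log2 difference of 0.08, and the 9 spots usable on both arrays gave differences from 0.00634 to 0.21. The second probe, for transcript NM_177410, gave 7366 and 7762, a difference of 0.25 with a propagated software error of 0.20. The ranges of raw signals of the 10-spot probe overlapped between the arrays, and the probes of Bcl2 differed from each other by less than the SD between probes of a gene.

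Mcl1, a short-lived antiapoptotic protein that binds BAK, BIM and NOXA, had the lowest value of the family. Its brighter probe read 35966 (software error 3597) on the CD4+ and 26533 (2653) on the CD8+ array, 1.20-fold higher in the CD4+ cells with a log2 difference of -0.26 and an error of 0.20. The other probe, at 10561 and 8705, gave -0.10. Both probes were lower on the CD8+ array, 1 by more and 1 by less than its software error, and 19.3% of genes measured on both arrays had a lower difference than the brighter one. None of the 16 probes of the family was saturated.

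Bcl2l1, whose main product BCL-XL is known to be induced by costimulation, had 3 probes. The probe with repeated spots read 174 ± 11.2 (SD, 9 spots) on the CD4+ and 131 ± 15.9 (10 spots) on the CD8+ array, a scaled difference of -0.24. All 9 spots usable on both arrays were lower on the CD8+ array, with differences from -0.44 to -0.12 and an SD of 0.10. The other probes were dim, at 26.7 and 23.1 (difference -0.03) and at 13.9 and 12.9 (difference 0.07). The latter was not detected on the CD8+ array and lay in the other direction after scaling. The offset of Bcl2l1 thus rested on 1 probe, and it was -0.04 with normexp background correction and -0.07 with the authors' series values.

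Both pore-forming effectors were close to equal on the arrays. Bax had 1 probe in 10 spots, which read 4857 ± 210 (SD) on the CD4+ and 4499 ± 285 on the CD8+ array. The scaled difference was 0.06, from -0.01 to 0.13 over the 10 spots with an SD of 0.04. Bak1 read 1263 and 1283 with its brighter probe and 124 and 127 with the other. These gave differences of 0.20 and 0.21, each with an error near that size (0.20 and 0.21). The probes of Bak1 agreed closely although their signals were far apart.

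Bid was the member that stood furthest from the rest. BID is a BH3-only protein that caspase 8 and granzyme B cleave into its active form, linking death receptors and cytotoxic granules to the mitochondria. Its single spot read 861 (software error 86.1) on the CD4+ and 1351 (error 135) on the CD8+ array. After scaling, Bid was 1.77-fold higher on the CD8+ array, a log2 difference of 0.83 with a propagated software error of 0.20. Of the 11957 genes measured on both arrays, 341 (2.85%) had a higher difference. Bid was singled out as the highest of 10 members, so this share overstates how unusual it is. Among the 10 members, Bid alone passed 1.5-fold, a threshold added after its value was seen, which 15.9% of all 13058 genes passed in either direction and 6.04% in the direction of the CD8+ array. With quantile normalization the value of Bad, 0.61, passed it as well. The fold ran from 1.64 with normexp to 1.96 with median scaling over 11 alternative settings. One probe with 1 spot on 1 array per cell type carried this value, so it has neither a spot nor a probe replicate.

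Markers of other cells and of subsets of T cells also moved between the arrays, and their part in the value of Bid was not tested. All 9 of 9 B cell markers were higher on the CD8+ array, by 0.12 to 0.84 on the log2 scale, and their summed signal, in multiples of the array's 75th percentile, was 19.9 on the CD4+ and 30.6 on the CD8+ array. All 4 of 4 platelet markers were higher there too, with sums of 0.458 and 0.753. Regulatory T cell markers lay the other way in 4 of 4 genes, with sums of 4.07 and 0.466, as did plasma cell markers in 5 of 5 (5.02 and 3.14), NK cell markers in the 2 of 4 that were measured (0.991 and 0.200) and dendritic cell markers in 5 of the 6 measured of 8 (7.75 and 3.54), the same direction as Mcl1 and Bcl2l1. The NK cell markers Klre1 and Klri2 were detected on neither array. Macrophage and monocyte markers were lower on the CD8+ array in 5 of the 6 measured of 7 (34.0 and 27.3). Markers of activated or memory T cells were lower there in 4 of 5 genes, again the direction of Mcl1 and Bcl2l1, with a median of -0.64, while Il2rb was higher at 0.47 and the sums were 55.5 and 64.4. Their part in the values of Mcl1 and Bcl2l1 was not tested. In RNA from sorted populations, fewer cells of a type and less RNA per cell cannot be told apart.

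The other BH3-only genes differed little. Bcl2l11, encoding BIM, which binds all the antiapoptotic members, read 3044 and 3057 with its brighter probe and 62.5 and 63.6 with the dimmer one. Both gave nearly the same difference, 0.18 and 0.20, with errors of 0.20 and 0.23. Bbc3, encoding PUMA, a target of p53, read 7417 and 7650, a difference of 0.22 with an error of 0.20. Pmaip1, encoding NOXA, which binds MCL1 preferentially, read 2146 and 1761, a difference of -0.11 with an error of 0.20. For Bcl2l11, Bbc3 and Pmaip1 the difference was thus about the size of the software error or smaller. That error is assigned by the scanner software and is not a measured spread between spots.

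Bad encodes a BH3-only protein that growth factor signals keep inactive by phosphorylation. Its single probe was near the detection limit, at 15.2 on the CD4+ array, where it was not detected, and 17.5 on the CD8+ array. The CD8+ level was 1.30-fold the probe's own CD4+ reading, which was higher than the lowest level among detected probes. This is the plain difference of the readings and not a lower limit. With a software error of 0.45 on the log2 scale, the difference of 0.38 was smaller than its error, and it was 0.18 with normexp. The level of Bad in these cells was not resolved by this probe.

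**Figure D2:**
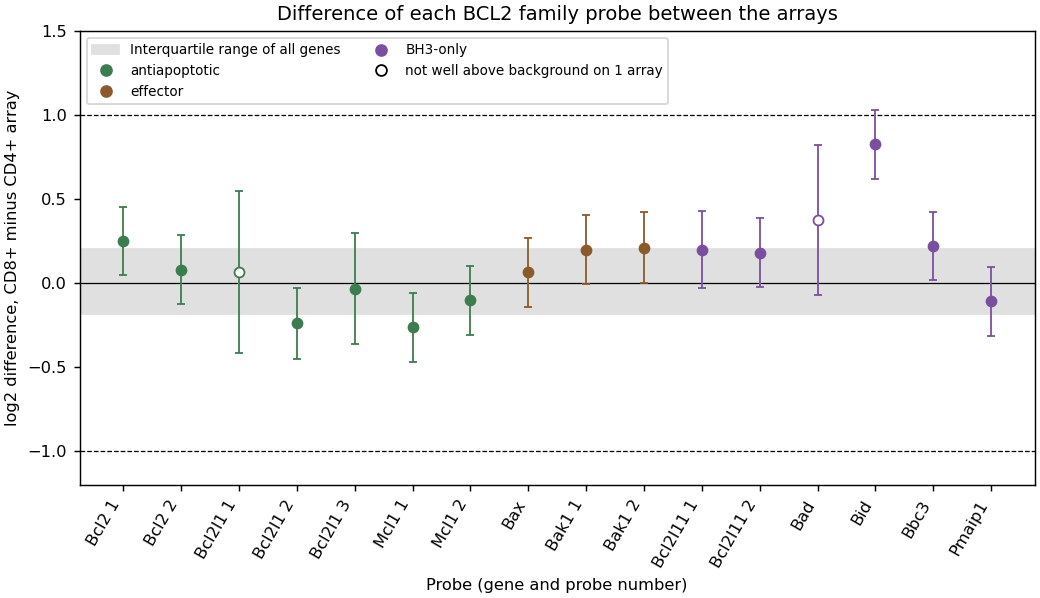
Log2 difference, CD8+ minus CD4+ array, of each of the 16 member probes, coloured by role. Bars are the propagated error of the scanner software, the grey band is the interquartile range of all genes (-0.18 to 0.20) and dashed lines mark 2-fold. Bid (0.83) lies furthest above the band, and a probe of each of Bcl2, Bak1, Bbc3 and Bad also lies above it. The brightest probes of Mcl1 and Bcl2l1 lie below it, while their other probes do not.

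Differences between members do not depend on how the arrays are scaled by a constant. Bid had the highest value of the family, so every other member was lower relative to it, whatever its role. The effector Bax (0.06) lay slightly further below Bid than Bcl2 (0.08) did. Relative to Bid, the difference of log2 differences was -0.75 for Bcl2, -1.07 for Bcl2l1 and -1.09 for Mcl1. For Bcl2 against Bid this ran from -0.77 to -0.66 over 12 settings, and for Bcl2l1 it was -0.75 with normexp. Mcl1, with the lowest value of the family, fell below any partner by construction. It had -0.46 relative to Bak1, -0.45 relative to Bcl2l11 and -0.15 relative to Pmaip1. Bcl2 had -0.10 relative to Bcl2l11 and 0.02 relative to Bax. By role, the 3 antiapoptotic genes had a median difference of -0.24, both effectors one of 0.13 and the 5 BH3-only genes one of 0.22. The last counts Bad with its undetected CD4+ reading. The spans overlapped, with Bcl2 (0.08) above Bax and Pmaip1 (-0.11) below both effectors. The antiapoptotic median is the value of Bcl2l1, and it was -0.04 with normexp, -0.07 with the series values and -0.10 with median scaling. With 1 array per cell type none of these offsets was tested.

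The members sit in a wider pathway, for which 59 other genes were listed and 54 were detected on at least 1 array. Only 1 of the 54 differed by 2-fold, Fasl, the ligand of the death receptor FAS, against 6.87% of all genes. Its scaled signal was 2.23 times the 75th percentile of the CD4+ array and 0.215 times that of the CD8+ array, a difference of -3.38, which was -2.69 with normexp, and its second probe gave -2.86. The median over the 54 genes was 0.00809. No gene of the list was 2-fold higher on the CD8+ array.

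Other members of the BCL2 family were measured for 9 of 14 genes, with a median of -0.22. Bcl2l14 (BCL-G) had 0.79, with 0.89 from its second probe. Its value was 0.36 under normexp and 0.51 from the series table. Bcl2a1b, of the antiapoptotic A1 group, had -0.74, and its near-identical copies leave uncertain which of them the probe measured. Bcl2l10 and the BH3-only gene Hrk were detected on neither array, and Bcl2a1a, Bcl2a1d and Bok had no named probe. Below 0 lay 7 of the 9, beside 3 of the 10 listed members and 47.7% of all 13058 genes, and with median scaling 5, 2 and 30.4%.

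Among the groups listed, the apoptosome and mitochondrial factors spanned the narrowest range. All 10 lay between -0.18 for Apaf1, the apoptosome scaffold, and 0.20 for Endog, a mitochondrial nuclease. The group of executioner caspases and their nuclease spanned a wider range. In it Dffb, the nuclease that these caspases release, had 0.38. Of the inhibitors of apoptosis, Birc5 (survivin), which also serves cell division, had -0.55, and Xiap, a caspase inhibitor, -0.27. The cycling marker Mki67 had -0.64, and a part of cycling cells in the value of Birc5 was not tested.

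In the death receptor arm, besides Fasl, Tnfrsf1a, the receptor TNFR1, had -0.47. Casp8, the protease that cleaves BID, had 0.13. Of the regulators, Trp73, a relative of p53, had -0.80 (-0.52 with normexp), and Ywhaz, a 14-3-3 protein of the kind that sequesters phosphorylated BAD, 0.27 from its brighter probe and -0.10 from the other. Foxo1 had -0.02 with a second probe at 0.05, Foxo3 was detected on the CD4+ array alone and too dim for a fold, and Trp53 had 0.11 and -0.09 from its 2 probes. The 5 cytokine receptor genes were all above 0, from 0.02 to 0.47, while 47.7% of all 13058 genes lay below 0. The lowest of the 5 falls below 0 with scaling over detected probes, where 54.7% of all genes lay below 0. The 5 were led by Il2rb, the chain shared by the receptors of interleukin 2 and 15, at 0.47 and Il2rg at 0.34. All but Il2rb and Il2rg lay inside the interquartile range of all genes. Il7r, whose signals sustain naive T cells, had 0.13.

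**Figure D3:**
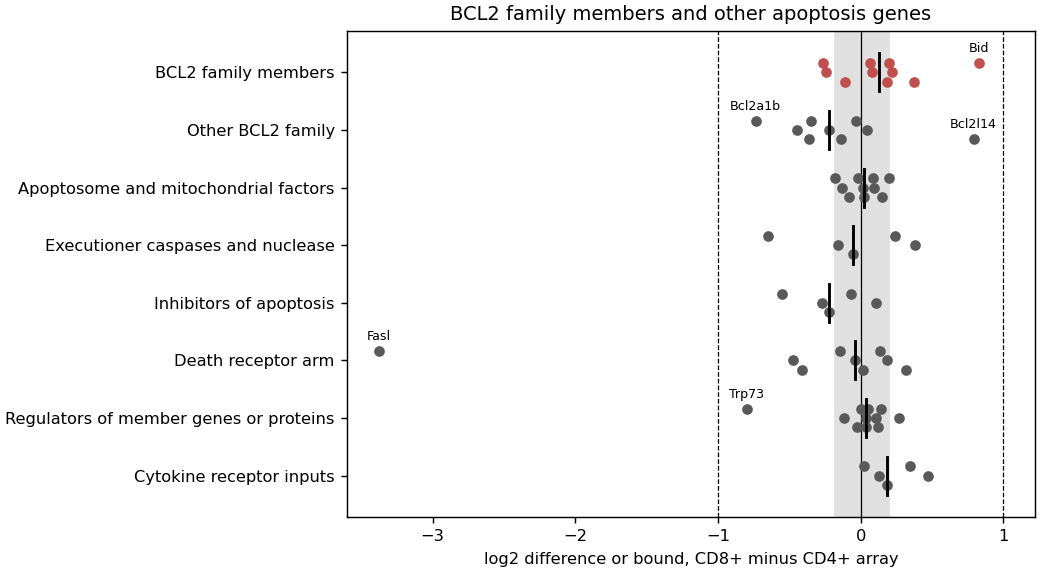
Log2 difference or bound, CD8+ minus CD4+ array, of the 10 members (red) and 54 other apoptosis genes (grey) by group. Vertical bars are group medians, the grey band is the interquartile range of all genes, dashed lines mark 2-fold, and Fasl (-3.38) is the single gene beyond them.

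**Figure D4:**
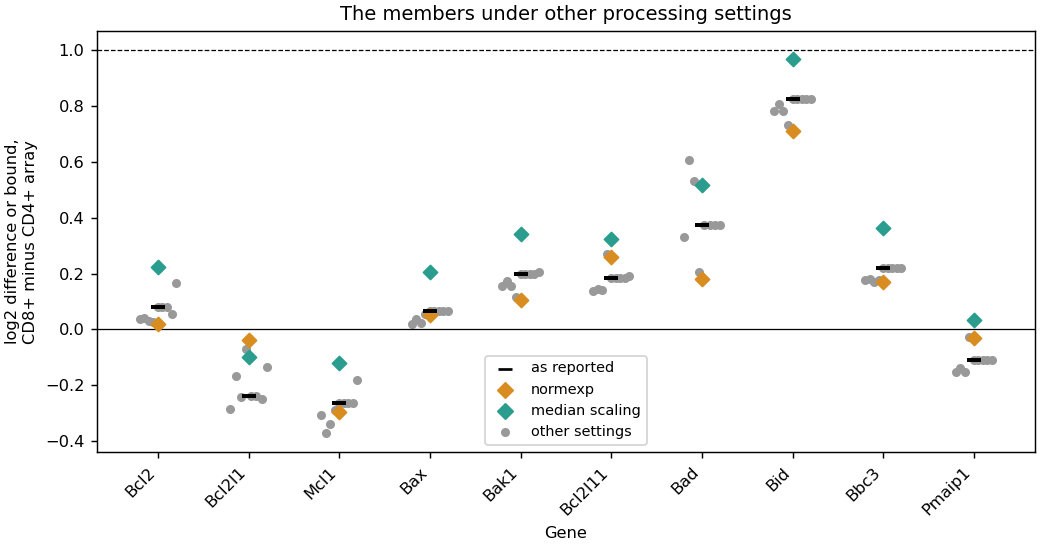
Log2 difference or bound, CD8+ minus CD4+ array, of each member as reported (black bar) and under the alternative settings (points; diamonds are normexp and median scaling). Bid stays between 0.71 and 0.97, below the dashed 2-fold line, and Pmaip1 is the member whose sign changes.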

How the data were processed

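Per the labels' protocols, total RNA was amplified and labelled with Cy3. Each cell type had 1 array, both on 1 slide. The deposited scanner files give intensity on a linear scale after background subtraction by Feature Extraction 10.1.1.1, per the file headers (the submitters' processing notes name 9.1), without scaling between arrays. The intensity in the authors' series table equals the median spot signal at 45018 of 45018 spots.

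From these, log2 signals were centred on the 75th percentile of the non-control probes of that array. Control and outlier spots were left out, saturated spots kept and spots of a probe averaged. Probes were named through their accession in RefSeq GRCm38.p6 (24840 of 41170). Coordinates of that build were not used to place probes, because the headers name mm9, and served for the upstream windows alone. A gene took its brightest probe well above background, preferring probes detected on both arrays. A gene detected on 1 array has a bound, which takes for the dim array the probe's own reading or the lowest detected level, whichever is higher. Where that is the probe's own reading, as for Bad, the value is no lower limit.

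The members and lists were chosen with earlier results of these data known. All members were named; of other pathway genes, those past 2-fold and the 2 with the largest difference per group, except that a gene the rule names is not reported here. Alternatives were normexp (offset 50, on median signals), median, detected-probe, quantile and loess (span 0.3) scaling, series values, filters, saturated and outlier spots, the mean over probes and 4-fold. The computation was tested on simulated data. Python 3.11.15, numpy 2.4.6, pandas 2.3.3, matplotlib 3.10.9, R 4.3.3 and limma 3.58.1 were used.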

Additional observations from a re-analysis of the deposited data

How the results depend on the processing

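Over 11 alternative settings, the differences of the members moved by less than the SD between probes of a gene (0.23), and none reached 2-fold. With brighter probes alone Bad and Bcl2l1 gave no value. Median scaling gave the highest values for Bid (0.97) and Pmaip1 (0.03). With a threshold of 1.5-fold, chosen after seeing the data, 1 member (Bid) and 5 other pathway genes passed, in place of 0 and 1. Of all 13058 genes, 15.9% passed it, so neither count sets its list apart. With quantile normalization 2 members (Bid and Bad) passed, beside 2037 of all 13058 genes. At 4-fold the counts were 0 and 1, beside 1.59% of all genes. The median of the members ran from 0.08 to 0.27. No paired analysis was possible because each group has 1 array and the labels give no replicate numbers. With 1 array per cell type no replicate could be left out, and precision is limited by the number of arrays.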

Other observations

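Some genes of the wider pathway had probes that disagreed, and Cflar and Bmf are named here after their values were seen. Cflar, which encodes the caspase 8 regulator c-FLIP in long and short forms, had 4 probes detected on both arrays, with differences from -0.65 to 0.10, and its brightest probe gave -0.04. Bmf, a BH3-only gene, had 2 such probes, at -0.22 and 0.18. The probes of Bak1 gave 0.20 and 0.21 and those of Bcl2l11 0.18 and 0.20. The probes' positions in the transcripts were not used here.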
